A study of Mus musculus with 12 samples.

Results

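Macrophages take up fatty acids and lipoproteins and pass surplus cholesterol back to carriers outside the cell. The transcripts described here belong to that traffic: the uptake and lipase genes Cd36 and Lpl, the fatty acid binding proteins Fabp4 and Fabp5, the nuclear receptors Pparg and Nr1h3, the cholesterol exporters Abca1 and Abcg1, and the apolipoproteins Apoe and Apoc1. The 10 genes were chosen by symbol for these functions, with earlier results of the same libraries in view. Fabp4 had been seen among the largest differences between macrophage populations in metastatic marrow. Values that set one population against the other are therefore given as a description for these genes, without p-values. The number of them past the threshold of the model over all genes is printed with its background, and nothing is read from it. The deposited table held 18467 gene symbols, and 9 of the 10 genes had a row. Apoc1 was not analysed here.

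RNA was sequenced from 12 libraries of macrophages sorted from the femur and tibia marrow of mice, 3 libraries from different mice in each of 4 groups. The metastatic groups came from female Albino B6 mice whose caudal artery had received E0771, a mouse breast cancer cell line, at 8 weeks of age. The normal groups came from healthy control mice, whose strain, sex and age are not given separately in the sources used here. The time from injection to sorting is not given either. In each state, general macrophages were sorted as CD11b+ F4/80+ cells and niche macrophages as VCAM1+ CD163+ CCR3+ cells. Red cells were lysed before either sort. The titles label both sorts as general, so the population was read from the antigens. A sort by surface antigens can hold other cells that carry or bind them. Replicates are numbered 1 to 3, except that the niche libraries from normal marrow, whose column numbers differ from the titles, are called A, B and C.

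In lipid-laden tissue macrophages, CD36 imports fatty acids and oxidised lipoproteins, and lipoprotein lipase frees fatty acids from circulating triglyceride. PPARγ, the protein of Pparg, responds to fatty acids and drives Fabp4 and Cd36. LXRα, the protein of Nr1h3, responds to oxidised cholesterol and drives Abca1, Abcg1 and Apoe. Both receptors bind DNA as partners of the retinoid X receptor, at paired copies of a short motif.

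Library totals ran from 13688000 to 30332400 counts, and levels are given as CPM, counts relative to the library total after trimmed-mean scaling. A floor of 3 counts, below which a transcript is not told from none, equalled between 0.109 and 0.243 CPM and covers counting error only. The 6 genes of the macrophage marker list summed to between 142 and 340 CPM in general and between 456 and 1663 CPM in niche libraries. Neutrophil and monocyte markers summed to between 7256 and 9521 CPM and between 4633 and 4994 CPM (general), against 4722 to 5350 CPM and 711 to 1122 CPM (niche). Erythroid markers summed to between 11.8 and 99.6 CPM in general and between 375 and 1147 CPM in niche libraries. In niche libraries from normal marrow most of that sum was Hbb-bs (mean 483 CPM). There Hba-a1 and Alas2 had lower means than in general libraries (0.437 against 5.66 and 0.794 against 2.46 CPM), with overlap. The other erythroid markers had higher means. B and plasma cell markers summed to between 85.7 and 213 CPM in general and between 773 and 2843 CPM in niche libraries. In bulk samples, fewer cells of a type and less RNA per cell cannot be told apart.

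Promoters of 5 of the 10 genes (Cd36, Pparg, Nr1h3, Abca1 and Apoe) were found in RefSeq's table of GRCm38.p6, the build that the submitters' processing notes name as mm10. Each promoter window held 300 bases, from 250 before to 50 after a start site. The paired motif was searched as AGGTCA repeated in direct order, on both strands, with 4 bases between the copies (the spacing known for the liver X receptors) or 1 base (the spacing known for PPARγ). Up to 2 mismatches in the 12 fixed letters were allowed. At 4 bases, none of the 5 genes matched, beside 3.02% of 32851 promoters. The nearest letters at that spacing had 3 mismatches, a limit that 21.9% of promoters meet, and lay 67 bases before the Abca1 start and 9 bases before a Pparg start. At 1 base, Cd36 matched with 2 mismatches from 63 bases before its start, beside 3.86% of promoters. The 2 stretches are shown because these genes encode the exporter and the importer of the group. Capitals mark the nearest match, which lies on the opposite strand in both. The Abca1 stretch is at chr4:53159935-53159974 and the Cd36 stretch at chr5:17835935-17835971, each printed on the gene's strand (minus).
Abca1: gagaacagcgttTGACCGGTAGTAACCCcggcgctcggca
Cd36: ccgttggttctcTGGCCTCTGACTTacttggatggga
These are matches of letters, and binding was not measured.

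In both marrow states, every niche library lay above every general library for Lpl, Fabp4, Abca1 and Apoe. The niche libraries also held larger sums of macrophage markers and smaller sums of neutrophil and monocyte markers. The part of these cell shares in the differences was not tested. Fabp5 did not separate the populations in either state. In normal marrow, all niche libraries lay above all general libraries for 6 of the 9 genes, where 10% of 12882 tested genes did. In metastatic marrow the count was again 6 of 9, beside 8.34%. A gene is called where edgeR's quasi-likelihood test gave a Benjamini-Hochberg adjusted p-value under 0.05 over all tested genes. Of the 9 genes, 2 were past that threshold in normal marrow (Abca1 and Lpl), where 2.47% of all genes were, and 3 in metastatic marrow (Abca1, Fabp4 and Lpl), where 0.831% were. Fabp4 fell short of it in 3 of the 6 fits that left out a library, without general replicate 1, general replicate 2 or niche replicate 1. DESeq2, at the same threshold, called 15.4% and 4.05% of the 11838 genes to which it gave an adjusted p-value, and limma-voom with library quality weights 1.44% and 1.38% of all tested genes. These counts are no test of the 9 genes, which were chosen with this comparison in view. The median log2 ratio (log2 fold change, niche over general) of the 9 genes was 3.55 in normal marrow, against 0.19 over all tested genes, and 2.53 against 0.04 in metastatic marrow. The first median is the value of Lpl, and Nr1h3 enters it only as a gene above Lpl. That place of Nr1h3 rests on niche library B. All 9 genes passed the filter on low counts.

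**Figure D1:**
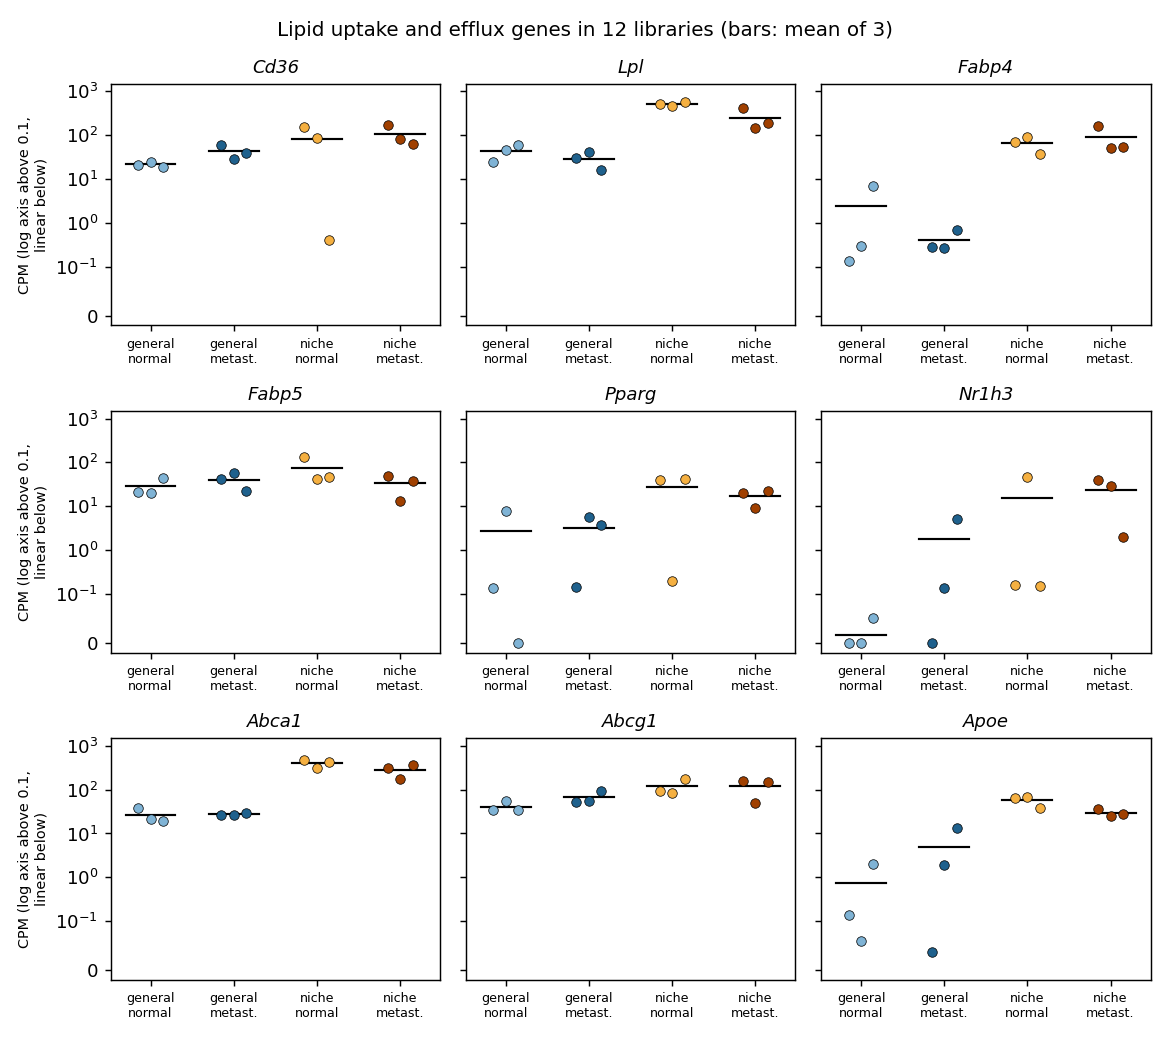
Level in CPM (vertical axis, logarithmic above 0.1 and linear below) of 9 genes in each of 12 libraries, with points for libraries and a bar for the mean of 3. Niche points lie above all general points for Lpl, Fabp4, Abca1 and Apoe, and 1 niche library from normal marrow sits at 0.402 CPM for Cd36.

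Among the uptake genes, Lpl encodes lipoprotein lipase, which macrophages secrete and which splits triglyceride outside the cell. Lpl stood at 24.04, 47.1 and 58.6 CPM in the general replicates from normal marrow and at 509, 454 and 560 CPM in niche libraries A to C. Metastatic marrow gave 30.1, 41.8 and 16.2 CPM in the general and 425, 144 and 186 CPM in the niche replicates. The 6 niche libraries were all above 100 CPM and the 6 general libraries all below. The log2 ratio between populations was 3.55 ± 0.46 (SE) in normal and 3.10 ± 0.45 (SE) in metastatic marrow, or 11.7-fold and 8.58-fold.

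Cd36, the fatty acid translocase, was the most uneven of the uptake genes. It stood at 21.4, 25.2 and 19.1 CPM in the general replicates from normal marrow, and at 157, 85.0 and 0.402 CPM in niche libraries A, B and C. Metastatic marrow gave 60.1, 29.1 and 39.4 CPM in the general and 167, 83.5 and 62.7 CPM in the niche replicates. Library C held 8 counts of Cd36 while A and B held 1938 and 1710, so the groups overlapped in normal marrow and did not in metastatic marrow. The log2 ratios were 1.89 ± 1.01 (SE) and 1.28 ± 0.99 (SE). Without library C the value in normal marrow was 2.47.

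Fabp4, the adipocyte-type fatty acid carrier that macrophages also make, was close to the floor in most general libraries. It stood at 0.137, 0.297 and 7.04 CPM in the general replicates from normal marrow, where replicate 3 stood far above the other 2, and at 69.6, 90.8 and 37.4 CPM in niche libraries A to C. Metastatic marrow gave 0.292, 0.271 and 0.695 CPM in the general and 164, 50.3 and 55.0 CPM in the niche replicates. The groups did not overlap in either state. The log2 ratio was 4.72 ± 1.25 (SE) in normal marrow and 7.72 ± 1.44 (SE) in metastatic marrow. The value in normal marrow was 8.20 without replicate 3 of the general macrophages.

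Fabp5, the epidermal-type carrier, lies near Fabp4 on the same chromosome, at chr3:10012548-10016607 on the plus strand, against chr3:10204088-10208576 on the minus strand for Fabp4 (GENCODE M21, GRCm38). Its level was spread over both populations. It stood at 20.8, 20.2 and 44.7 CPM in the general replicates from normal marrow and at 136, 41.2 and 47.4 CPM in niche libraries A to C. Metastatic marrow gave 42.1, 57.5 and 22.9 CPM in the general and 49.7, 13.5 and 38.3 CPM in the niche replicates. The log2 ratio was 1.39 ± 0.78 (SE) in normal and -0.27 ± 0.77 (SE) in metastatic marrow, with 95% intervals from -0.25 to 3.03 and from -1.88 to 1.34. Mouse genomes carry processed copies of Fabp5, and how reads shared with them were counted was not tested.

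The receptor transcripts were low and came and went between libraries of the same group. Pparg stood at 0.137, 8.01 and 0 CPM in the general replicates from normal marrow and at 38.8, 0.199 and 41.6 CPM in niche libraries A to C. Metastatic marrow gave 0.146, 5.83 and 3.73 CPM in the general and 20.1, 9.09 and 22.5 CPM in the niche replicates. The niche libraries lay above the general ones in metastatic marrow, and library B, with 4 counts, broke that order in normal marrow. The log2 ratios of 3.30 ± 2.21 (SE) and 2.41 ± 2.13 (SE) had 95% intervals that included 0.

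Nr1h3 had 0, 0 and 1 counts in general macrophages from normal marrow, all under the floor. Niche libraries A, B and C held 2, 922 and 3 counts, so library B alone, at 45.8 CPM, was above the floor. With metastases, Nr1h3 stood at 0, 0.136 and 5.20 CPM in general and at 39.7, 29.2 and 1.96 CPM in niche macrophages, and the groups overlapped. The separation of the populations in normal marrow rests on values at or under the floor in 5 of 6 libraries, and no fold is given for it. The log2 ratio in metastatic marrow was 3.73 ± 2.52 (SE).

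Uneven values of this kind were common in the niche libraries from normal marrow. Of 8441 genes with a group mean of at least 10 CPM there, 42.2% had a highest library at least 20-fold above the lowest, against 13.2% in general macrophages from normal marrow, 3.49% in general and 16% in niche macrophages from metastatic marrow. Cd36, Pparg and Nr1h3 were past that ratio in niche macrophages from normal marrow, and Lpl, Fabp4, Fabp5, Abca1, Abcg1 and Apoe were not. Over the 9 genes, 11 of 54 values in general libraries and 2 of 54 in niche libraries were at or under 3 counts.

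Of the exporters, Abca1 hands cholesterol to lipid-poor apolipoprotein A-I. It stood at 38.0, 21.4 and 19.5 CPM in the general replicates from normal marrow and at 481, 303 and 417 CPM in niche libraries A to C. Metastatic marrow gave 26.2, 26.8 and 28.8 CPM in the general and 309, 171 and 355 CPM in the niche replicates. Every niche library was above 150 CPM and every general library below 50 CPM. The log2 ratios were 3.93 ± 0.39 (SE) and 3.35 ± 0.38 (SE), or 15.2-fold and 10.2-fold.

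Abcg1 moves cholesterol to mature high-density particles and differed less than Abca1. It stood at 34.4, 53.9 and 33.9 CPM in the general replicates from normal marrow and at 94.9, 83.0 and 177 CPM in niche libraries A to C. Metastatic marrow gave 52.7, 54.4 and 94.7 CPM in the general and 158, 48.8 and 147 CPM in the niche replicates. The populations did not overlap in normal marrow, and in metastatic marrow niche replicate 2 fell below all general libraries. The log2 ratios were 1.54 ± 0.52 (SE) and 0.81 ± 0.51 (SE).

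Apoe encodes the apolipoprotein that macrophages release with effluxed cholesterol. It stood at 0.137, 0.0593 and 2.05 CPM in the general replicates from normal marrow and at 63.2, 68.5 and 38.3 CPM in niche libraries A to C. Metastatic marrow gave 0.0365, 1.94 and 13.1 CPM in the general and 35.5, 24.4 and 27.2 CPM in the niche replicates. The niche libraries were close to each other, and the general libraries ranged from 1 count to 357 counts in metastatic marrow. The log2 ratios were 6.22 ± 1.83 (SE) and 2.53 ± 1.54 (SE).

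**Figure D2:**
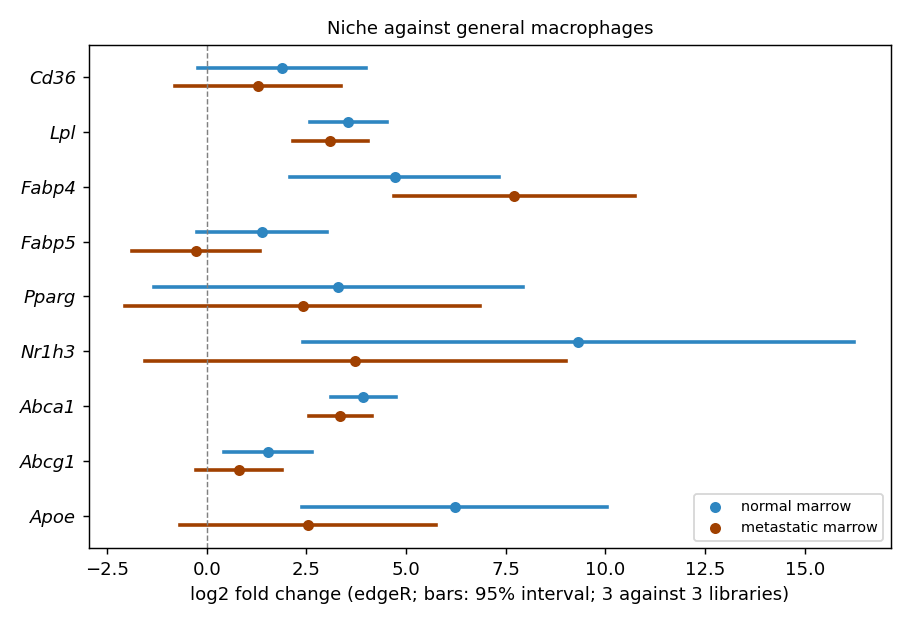
Log2 fold change of niche against general macrophages (horizontal axis) for 9 genes in normal and metastatic marrow, with bars for 95% intervals from 3 against 3 libraries. Abca1 and Lpl have the narrowest intervals, and the point of Nr1h3 in normal marrow rests on general libraries at or under 1 count, so it is no estimate of size.

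Other cells express several of these genes, adipocytes, endothelial cells, stromal cells and platelets among them. None of the 7 adipocyte markers had a row, so adipocyte transcripts were not analysed here. Of the 5 endothelial markers with a row, Cdh5 was at or under 3 counts in all 12 libraries. The endothelial sum lay between 0.200 and 18.4 CPM in general and between 0.447 and 69.1 CPM in niche libraries, most of it Pecam1. The 6 stromal markers summed to between 0.585 and 24.7 CPM in general and between 24.3 and 141 CPM in niche libraries. Kitl, at a mean of 80.8 CPM in niche macrophages from normal marrow and 51.2 CPM in those from metastatic marrow, made up most of that sum, and Pdgfra averaged at most 0.308 CPM in any group. The megakaryocyte and platelet sum lay between 0.316 and 52.8 CPM in general and between 0.202 and 53.1 CPM in niche libraries. The part of these cells, and of the erythroid and B cell transcripts that were also higher in niche libraries, in the levels of Lpl, Fabp4, Cd36 and Apoe was not tested.

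Per kilobase of the principal coding transcript, the order of the 9 genes differed between the populations. Fabp5 was highest in general macrophages, at 28.9 ± 14.2 CPM per kilobase in normal and 41.3 ± 17.6 in metastatic marrow (SD, n = 3 each), above all libraries of the gene next in order. In niche macrophages from normal marrow, Lpl came first at 123 ± 12.8 CPM per kilobase, then Fabp5 at 75.9 ± 53.8 and Fabp4 at 73.6 ± 29.98 (SD, n = 3 each). In niche macrophages from metastatic marrow, Fabp4 came first at 100.3 ± 71.9 CPM per kilobase, then Lpl at 61.2 ± 36.8 (SD, n = 3 each). Neighbours in the order overlapped at every step in both niche groups. Fabp4 was low in general macrophages, at 2.78 ± 4.40 CPM per kilobase in normal and 0.468 ± 0.267 in metastatic marrow (SD, n = 3 each), where it came last.

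Metastasis was compared within each population, to find whether lipid transcripts of marrow macrophages differ when a tumour grows in bone. No member passed in general macrophages, where edgeR called 0.0155% of all genes. Unadjusted p-values lay under 0.05 for 2 of 9 genes, Fabp4 and Nr1h3, beside 5.12% of all genes. DESeq2 called none of the 7 members to which it gave an adjusted p-value (1.19% of all genes), and limma-voom none of 9 (0.179%). In niche macrophages, where edgeR called 0.00776% of genes, no member passed either, and 1 of 9 genes (Lpl) had an unadjusted p-value under 0.05, beside 12.7% of all genes. DESeq2 called none of 7 (8.06% of all genes) and limma-voom none of 9 (0.0854%).

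In niche macrophages, Lpl had the smallest p-value of the 9 genes. Its mean was 508 ± 52.8 CPM in normal and 252 ± 152 CPM in metastatic marrow (SD, n = 3 each), with every metastatic library below every normal one. The log2 ratio was -1.01 ± 0.42 (SE; edgeR's adjusted p = 0.381), with a 95% interval from -1.89 to -0.13. Apoe also separated without overlap, at 56.7 ± 16.1 and 29.1 ± 5.78 CPM (SD, n = 3 each), with a log2 ratio of -0.96 ± 1.46 (SE; edgeR's adjusted p = 0.918). These were 2 of 9 genes, beside 12.7% of tested genes whose groups did not overlap in either direction. Abca1 was at 400.2 ± 89.9 and 278 ± 95.5 CPM (SD, n = 3 each), which gave a log2 ratio of -0.52 ± 0.35 (SE; edgeR's adjusted p = 0.552). The macrophage markers also summed lower in the metastatic niche libraries, between 456 and 967 CPM against 1061 to 1663 CPM, and their part in these values was not tested.

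Abca1 and the other 6 genes overlapped between niche macrophages of the 2 states. Log2 ratios were 0.45 ± 1.07 (SE) for Fabp4, 0.37 ± 0.98 (SE) for Cd36 and -1.14 ± 0.78 (SE) for Fabp5. They were 0.62 ± 2.27 (SE) for Nr1h3, -0.64 ± 2.03 (SE) for Pparg and -0.01 ± 0.51 (SE) for Abcg1. The interval of Abcg1 ran from -1.07 to 1.06, or from 0.475-fold to 2.09-fold. Without niche replicate 1 from metastatic marrow, the values of Fabp4 and Cd36 turned to -0.33 and -0.15. Without library C, that of Cd36 was -0.22 and that of Abcg1 was 0.40, and without niche replicate 2 from metastatic marrow that of Abcg1 was 0.36.

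In general macrophages, Cd36 was the 1 gene of 9 without overlap, at 21.9 ± 3.04 CPM in normal and 42.9 ± 15.7 CPM in metastatic marrow (SD, n = 3 each), beside 12.9% of tested genes. Its log2 ratio was 0.97 ± 0.99 (SE; edgeR's adjusted p = 1). Fabp4 had a log2 ratio of -2.56 ± 1.16 (SE; edgeR's adjusted p = 0.944), which rested on replicate 3 from normal marrow and was 0.93 without it. Nr1h3 passed the floor in 1 of 6 general libraries, replicate 3 from metastatic marrow with 142 counts, and Apoe in 3 of 6. Abca1 was at 26.3 ± 10.2 and 27.2 ± 1.38 CPM (SD, n = 3 each), which gave a log2 ratio of 0.05 ± 0.35 (SE) with an interval from -0.68 to 0.78. Its sign turned with RLE scaling (-0.03).

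Lpl, Fabp5, Abcg1 and Pparg had log2 ratios in general macrophages of -0.56 ± 0.42, 0.51 ± 0.77, 0.72 ± 0.51 and 0.25 ± 2.02 (SE). The sign of Pparg turned in 3 of the 6 fits that left out a library: it was -0.48 without replicate 2 from metastatic marrow, and -0.30 and -0.33 without replicates 1 and 3 from normal marrow.

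**Figure D3:**
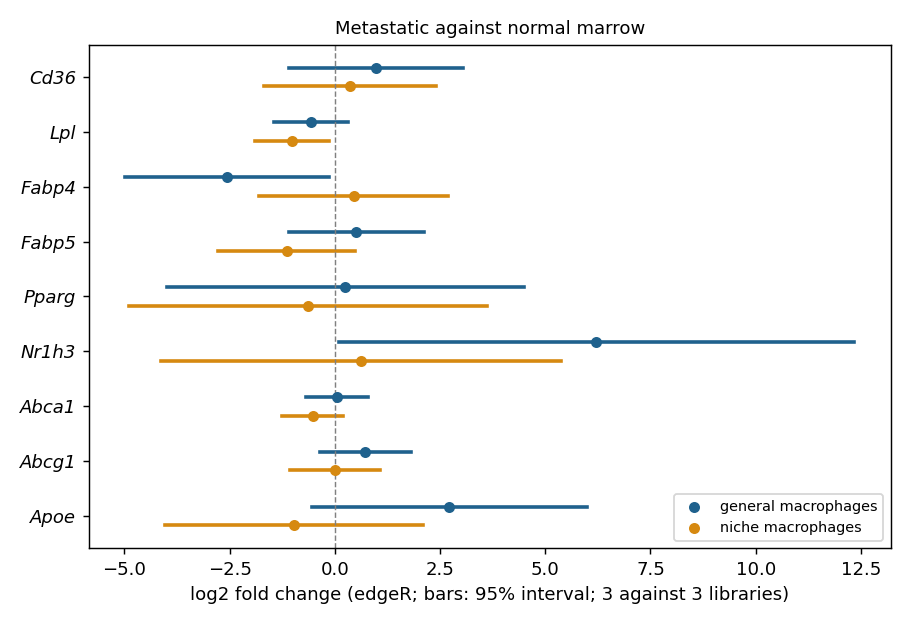
Log2 fold change of metastatic against normal marrow (horizontal axis) for 9 genes in general and niche macrophages, with bars for 95% intervals from 3 against 3 libraries. No gene was called in either population, and the bars of Pparg and Nr1h3 span more than those of Abca1, Lpl and Abcg1.

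The difference of the metastasis effect between populations was tested in the same model. No member and no gene of the whole table was called by edgeR (0%), and none of the 9 had an unadjusted p-value under 0.05 (7.89% of all genes). DESeq2 called none of 7 members (3.46% of all genes) and limma-voom none of 9 (0%). The smallest adjusted p-value was that of Fabp4, with a log2 difference of 3.00 ± 1.56 (SE; edgeR's adjusted p = 0.641), which was -0.49 without general replicate 3 from normal marrow. Abca1 differed by -0.57 ± 0.49 (SE) and Lpl by -0.45 ± 0.59 (SE), with intervals from -1.60 to 0.46 and from -1.69 to 0.79.

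The wider lipid machinery was described with 8 lists of 113 genes that are not members, of which 96 were tested. These lists too were chosen with earlier results of the same libraries known. Their shares and p-values between populations are therefore a description and no independent test. In normal marrow 4 were called higher and 2 lower in niche macrophages, or 6.25% beside 2.47% of all genes, with a median log2 ratio of -0.10. In metastatic marrow 2 were called higher and 0 lower, or 2.08% beside 0.831%, with a median of -0.03.

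Partners and other targets of the liver X receptors held 3 of the 4 genes called higher in normal marrow, out of 14 tested, and both of those called in metastatic marrow. Mertk, a receptor for apoptotic cells that is also on the macrophage marker list, averaged 296 ± 55.0 CPM in the niche and 2.22 ± 2.58 CPM in the general libraries of normal marrow (SD, n = 3 each; log2 ratio 7.04 ± 0.96 SE, edgeR's adjusted p = 0.000208). With metastases its log2 ratio was 6.10 ± 0.92 (SE; edgeR's adjusted p = 0.000993). Cd5l, a secreted regulator of macrophage lipid synthesis, was higher by 4.65 ± 0.98 (SE; edgeR's adjusted p = 0.0127) and 4.84 ± 0.99 (SE; edgeR's adjusted p = 0.0181). The second call of Cd5l ended without general replicates 1 or 3 or niche replicate 1, at log2 ratios of 4.32, 4.57 and 4.17. Scd1, which introduces a double bond into stearate, was higher in normal marrow by 3.65 ± 0.92 (SE; edgeR's adjusted p = 0.0391) and had a log2 ratio of 3.70 ± 0.92 in metastatic marrow (SE; edgeR's adjusted p = 0.0736). Its call ended in 4 of 6 fits: without each of the 3 general libraries (3.41, 3.85 and 3.76) and without library C (3.40).

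Cholesterol synthesis and its control had 24 tested genes. Insig2 and Nsdhl were not called in normal marrow (edgeR's adjusted p = 0.176 and 0.223), and in metastatic marrow Cyp51, Nsdhl and Lss led the list (edgeR's adjusted p = 0.552, 0.609 and 0.620). The median of the list was -0.28 in normal and 0.10 in metastatic marrow.

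Of 11 genes of lysosomal lipid release, Scarb2, a lysosomal membrane receptor, was higher in niche macrophages from normal marrow by a log2 ratio of 2.59 ± 0.49 (SE; edgeR's adjusted p = 0.00549), and none was called in metastatic marrow. Lipa, the acid lipase that splits cholesteryl esters, had log2 ratios of 1.42 ± 0.46 (SE; edgeR's adjusted p = 0.126) and 1.55 ± 0.46 (SE; edgeR's adjusted p = 0.207). Pla2g15, a lysosomal phospholipase, had 1.71 ± 0.61 and 2.08 ± 0.61 (SE), without a call. Asah1, acid ceramidase, had 1.52 ± 0.64 in normal and -1.01 ± 0.63 in metastatic marrow (SE), without a call in either.

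Of 10 lipoprotein receptors, Sorl1 was lower in niche macrophages from normal marrow by a log2 ratio of -1.27 ± 0.22 (SE; edgeR's adjusted p = 0.00287), and had -0.58 ± 0.22 in metastatic marrow (SE; edgeR's adjusted p = 0.486). Lrp1, which clears remnant particles that carry apolipoprotein E, had 1.89 ± 0.51 (SE; edgeR's adjusted p = 0.0569) and 1.09 ± 0.50 (SE; edgeR's adjusted p = 0.562). Trem2, a lipid-sensing receptor, was not called in normal marrow (edgeR's adjusted p = 0.0859), nor was Vldlr in metastatic marrow (edgeR's adjusted p = 0.548).

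No gene was called by edgeR among fatty acid transport (8 tested), fatty acid oxidation (13 tested), lipid droplet (11 tested) and lipase assembly genes (5 tested), in either marrow state. Unadjusted p-values under 0.05 numbered 1, 1, 4 and 1 in normal marrow, against 0, 0, 1 and 0 with metastases, beside 19.0% and 8.60% of all genes. The smallest adjusted p-values of the 4 lists by edgeR in normal marrow were 0.237 (Slc27a1, a fatty acid transporter), 0.235 (Hadhb), 0.216 (Soat1) and 0.196 (Furin, a protease that cleaves lipoprotein lipase). Dbi and Acsl1, Acaa2 and Acadl, Pnpla2 and Abhd5, and Sdc1 and Lmf1 came next in the same order. In metastatic marrow the first 3 of the lists were Acsl4, Slc27a4 and Acsl1, Acaa2, Hadhb and Ppard, Soat1, Dgat2 and Nceh1, and Sel1l, Sdc1 and Lipg, with a smallest adjusted p-value of 0.402 for Soat1 by edgeR. Soat1, which esterifies cholesterol for storage, had log2 ratios of -0.59 ± 0.23 and -0.66 ± 0.23 (SE), and Hadhb, of the mitochondrial trifunctional protein, 1.78 ± 0.75 and 1.16 ± 0.74 (SE). Lipid droplet genes had negative values in 9 of 11 cases in both states, with medians of -0.59 and -0.45. With metastasis none of the 96 genes was called by edgeR in general macrophages (5 at an unadjusted p-value under 0.05) or in niche macrophages (13). The shares of all genes at that unadjusted threshold were 5.12% and 12.7%. DESeq2 called 2 and 7 of the 93 genes to which it gave an adjusted p-value, or 2.15% and 7.53% beside 1.19% and 8.06% of all genes. Limma-voom called 1 and 0 of 96, beside 0.179% and 0.0854%.

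**Figure D4:**
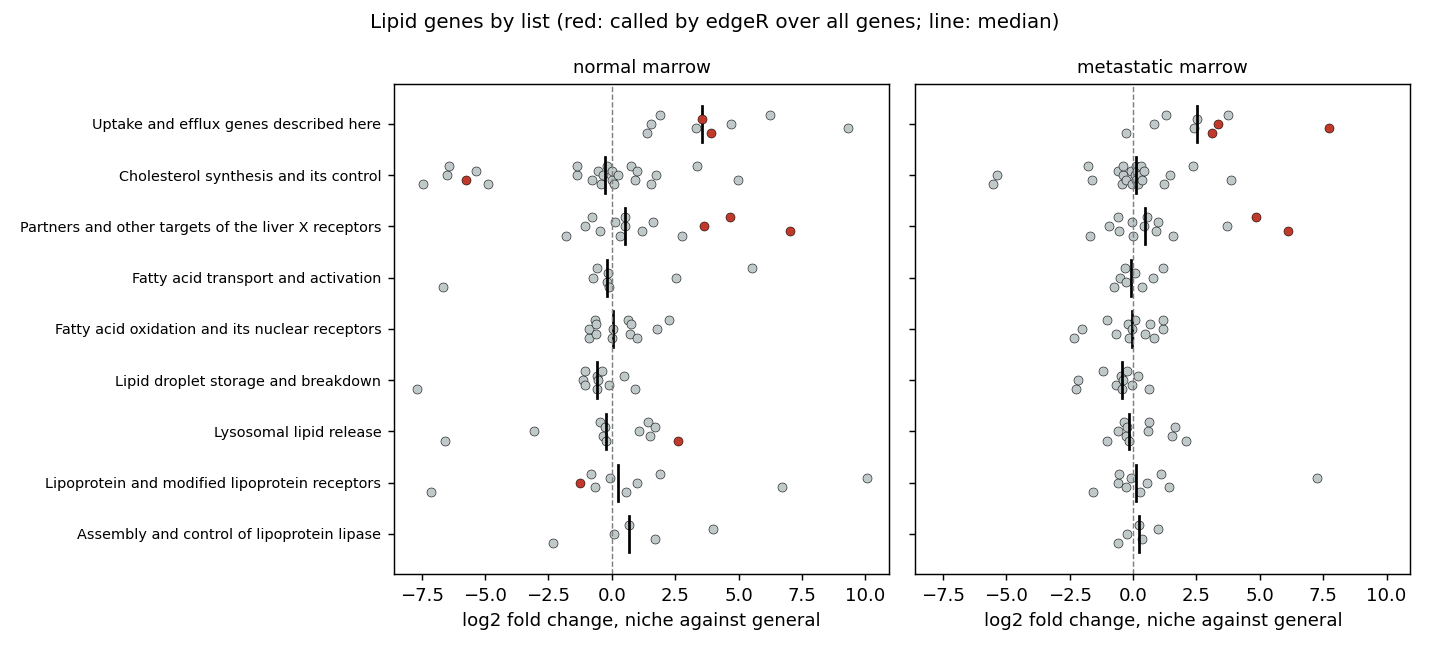
Log2 fold change of niche against general macrophages (horizontal axis) for the 9 genes described here and for 8 lists of other lipid genes, in normal and metastatic marrow. Each point is a gene, red where edgeR called it over all genes, and a black line marks the median of a list. The 8 list medians lie between -0.59 and 0.69 in normal and between -0.45 and 0.49 in metastatic marrow; Nr1h3 and Trem2 in normal marrow are set against general libraries at or under 1 count.

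Across the 12 libraries, the level of Abca1 ran closest to those of Vcam1, which encodes an antigen of the niche sort, and Hmox1, with Pearson correlations of log2 CPM of 0.986 and 0.979 among 8144 genes averaging 10 CPM or more. Lpl ran closest to Snx5 (0.980) and Wwp1 (0.979), Fabp4 to Mertk (0.966) and Xpo7 (0.958), and Apoe to Ppp1r9a (0.949) and Prnp (0.940). Cd36 ran closest to Tmco4 (0.960) and Dcaf6 (0.955), Fabp5 to Ifih1 (0.935) and Hbs1l (0.911), and Pparg to Gnpat (0.880) and Pxmp4 (0.878). The lowest of these best correlations were those of Abcg1 with Lrp12 (0.847) and Brd8 (0.845) and of Nr1h3 with C4b (0.822) and Atg14 (0.816). The points share libraries, depth and the split into 2 populations, so these values describe likeness of pattern only.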

How the data were processed

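The authors deposited 1 table of expected counts per gene symbol for 12 libraries, of which 73.9% of values are whole, so the unit was read from the values. Per the submitters' processing notes, Partek, STAR 2.7.3a, DESeq2 1.40.2, R 4.3.1 and mm10 were used, with no roles stated. The counting step, annotation and strandedness are not given in the sources used here. The libraries were depleted of ribosomal RNA, per the labels' protocols. Counts were rounded, filtered with filterByExpr (12882 genes kept), scaled by TMM and fitted with edgeR 4.0.16 (R 4.3.3) as 4 group means with quasi-likelihood tests. P-values were adjusted by Benjamini-Hochberg over all tested genes, and genes under 0.05 are called. Standard errors came from the F statistic. P-values, SEs and intervals rest on the spread between mice within groups. For each gene it was pooled over the 4 groups and drawn towards that of other genes, although the spread was unequal between groups. The alternatives tried were scaling by RLE or by library size only, testing without the filter, DESeq2 1.42.0, limma-voom with library quality weights (limma 3.58.1), the libraries of a comparison alone, a replicate block and leaving out each library. The procedure was run on simulated data with less spread than these libraries, equal in all groups, and large changes in well-counted genes. That run does not show how it performs at the spread and low counts found here.

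The members and lists were chosen with earlier results of these data known. Named genes are all members, the 3 smallest p-values of each list in each comparison of populations (the lists' called genes and examples are printed), the smallest over all lists for metastasis, and the 2 nearest patterns of each member. Positions and lengths are from GENCODE M21 (GRCm38). A called gene of the other lipid lists is counted but not reported here by name.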

Additional observations from a re-analysis of the deposited data

How the results depend on the processing

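For the members between populations, the counts past the threshold are a description, since the genes were chosen with this comparison in view. In normal marrow DESeq2 called 5 of the 7 genes to which it gave an adjusted p-value, beside 15.4% of all genes, adding Fabp4, Nr1h3 and Abcg1 to the 2 of edgeR. Apoe was added by limma-voom, run with library quality weights throughout, and Fabp4 by edgeR without the low-count filter. The count ranged from 2 to 4 with a library left out: niche library C removed added Cd36 and Fabp4, and general replicate 3 removed added Fabp4. In metastatic marrow Fabp4 was no longer called without general replicate 1, general replicate 2 or niche replicate 1 (7.51, 7.49 and 6.94). Of 93 other lipid genes with an adjusted p-value, DESeq2 called 21 in normal and 6 in metastatic marrow (edgeR 6 and 2 of 96), or 22.6% and 6.45% beside 15.4% and 4.05% of all genes. It called 2 and 7 for metastasis in general and niche macrophages and 2 for the difference (edgeR 0 each), beside 1.19%, 8.06% and 3.46% of all genes, and limma-voom called 1 in general macrophages, beside 0.179%. With a library left out, edgeR's counts of other lipid genes between populations ranged from 5 to 8 in normal marrow. They ranged from 1 to 2 in metastatic marrow, and from 0 to 1 for metastasis in niche macrophages. Whether the same replicate numbers mark pairs is not settled here, and the main model has no term for pairs. Deviations of same-numbered libraries correlated weakly, between -0.00738 and 0.0337. Of 18 comparisons of a library with the 3 numbers of another group, 11 were highest with their own number. A replicate block over 9 libraries gave 3 members and 4 other lipid genes between populations in metastatic marrow, and 0 and 0 for metastasis in general macrophages.

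Signs turned only for values without a call. With limma-voom and its quality weights these were Cd36 between populations in normal marrow (-0.48), Pparg with metastasis in niche macrophages (1.604), and the differences of Cd36 (1.45) and Nr1h3 (0.85). With library size only they were Fabp5 between populations in metastatic marrow (0.017) and Abcg1 with metastasis in niche macrophages (0.25), the latter also with the 6 libraries alone (0.14). Abca1 with metastasis in general macrophages was -0.028 with RLE scaling and with DESeq2. With a library left out, the values that turned were 0.057 to 0.11 for Fabp5 between populations in metastatic marrow. With metastasis in general macrophages they were 0.93 (Fabp4), -0.48 to -0.30 (Pparg) and -0.12, -0.076 and -0.0062 (Abca1). In niche macrophages they were -0.22 to -0.15 (Cd36), -0.33 (Fabp4) and 0.36 to 0.40 (Abcg1), and for the difference 0.30 (Cd36), -0.49 (Fabp4) and 0.96 (Nr1h3). The cause was not tested. Library size only moved the median of all genes by 0.25 between populations in metastatic marrow and by 0.23 with metastasis in niche macrophages. Counts near 0 limit what can be said of Nr1h3, Pparg and, in general macrophages, of Apoe and Fabp4.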

Other observations

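Lipg and Trem2 had levels near 0 in all libraries of 1 or 2 groups and higher levels in others. Lipg, which encodes endothelial lipase, a phospholipase of high-density particles, was at 0.0687, 0.178 and 0.04995 CPM in general macrophages from normal marrow and at 0.0812, 0.0994 and 0.301 CPM in niche libraries A to C. Metastatic marrow gave 25.2, 36.3 and 13.1 CPM in the general and 20.2, 22.3 and 6.58 CPM in the niche replicates. All 6 metastatic libraries were above all 6 normal ones. It had the smallest p-value of the lipid lists for metastasis in general macrophages and did not pass there (edgeR's adjusted p = 0.856) or in niche macrophages (edgeR's adjusted p = 0.381).

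Trem2, a lipid-sensing receptor of macrophages, had 0, 0 and 1 counts in general macrophages from normal marrow and 669, 293 and 384 counts in those from metastatic marrow (edgeR's adjusted p = 0.944). In niche libraries A to C it had 534, 410 and 266 counts, and in the metastatic niche replicates 689, 0 and 1 counts.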
